A study of Homo sapiens with 4 samples.

Results

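The SOX transcription factor family was examined in the human glioblastoma cell line LN229, in which *SOX2* had been knocked down by RNA interference. Its members were *SOX1*, *SOX2*, *SOX3*, *SOX4*, *SOX5*, *SOX8*, *SOX9*, *SOX10*, *SOX11* and *SOX18*, found on the arrays by their gene symbol. These 10 genes had 11 of the 33096 gene probes, 2 of them for *SOX18*, and made up 10 of the 27739 features that remain when probes of the same gene ID are averaged. The mock knockdown and *SOX2* knockdown groups were both grown in DMEM and transfected, the mock group with a non-targeting control siRNA and the other with siRNA against *SOX2*. A short interfering RNA (siRNA) directs the degradation of a matching transcript. There were 2 arrays per group, each carrying biotin-labelled RNA of 1 transfection on a 1-colour chemiluminescent oligonucleotide array, and cells of both groups were harvested at the same time after transfection. The knockdown was transient, the methods list 2 siRNAs against *SOX2* without saying which was used on the arrays, and 1 cell line was studied. The study asked which genes depend on *SOX2* in glioma cells, and the changes of its relatives are 1 part of that question.

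SOX proteins bind DNA through a shared HMG box, a domain that fits into the minor groove and bends the double helix. They act with partner factors such as POU and PAX proteins, and relatives of the same group can often stand in for each other. *SOX1*, *SOX2* and *SOX3* form the SoxB1 group, which keeps neural progenitors undifferentiated. *SOX4* and *SOX11* of the SoxC group act in neuronal differentiation, and *SOX8*, *SOX9* and *SOX10* of the SoxE group in glial and neural crest lineages. *SOX5* of the SoxD group lacks an activation domain of its own and acts with SoxE proteins, while *SOX18* of the SoxF group acts in endothelial cells.

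Each signal was divided by the 75th percentile of the features of its array, so that a signal of 1 lies at that percentile. Signal to noise (S/N) is a score in the scanner files, equal to the assay-normalized signal over its standard error except for probes flagged at background, where it can be negative, and a feature was tested where both arrays of 1 group or of both had an S/N over 3, which held for 18378 of 27739 features (66.3%). Of the 10 SOX features 8 were tested, each with S/N over 3 on all 4 arrays. *SOX9* and *SOX18* were not. Over all probes, between 63.5% and 68.9% had S/N over 3 on an array. Levels of different genes are not compared, since probes differ in brightness, and precision is limited by having 4 arrays.

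The treatment field of the labels speaks of SW620, which is a colon cancer line, whereas every other field gives LN229, so markers of both origins were examined. Of 12 glioma and glial markers, 10 had S/N over 3 on all 4 arrays, among them *VIM*, *S100B* and *CD44*, while *CHI3L1* had S/N over 3 on 0 arrays. Of the 11 that were tested, *FABP7*, *PDGFRA* and *CHL1* were lower and *EGFR* was higher after knockdown with an unadjusted p under 0.05 in limma (9.07% and 8.12% of all features). *PDGFRA* passed the S/N limit through the mock group, and its knockdown signals lay under the 95th percentile of the 196 negative control spots of the array. The study names *PDGFRA* among up-regulated genes that it checked by RT-PCR, which is the opposite direction. Summed over the 12 glioma and glial markers, the signal came to 192 and 241 in mock knockdown and to 182 and 170 after *SOX2* knockdown. These sums were set mostly by *SPARC* (71.5 and 101 against 66.2 and 66.6) and *VIM* (50.1 and 57.5 against 58.1 and 49.8). Of 11 colon epithelium markers on the arrays, *KRT20* and *CDH17* had S/N over 3 on 0 arrays, and *CDX2* and *LGALS4* on the mock arrays alone. *EPCAM* passed that limit on mock replicate 2 alone, and *GPA33* and *CEACAM5* on *SOX2* knockdown replicate 2 alone. *CDX1* passed it on replicate 2 of each group. On every array the signals of *CDX2*, *LGALS4* and *VIL1* lay under the 95th percentile of the negative control spots. S/N over 3 on all 4 arrays was seen for 3, which were *VIL1*, *TFF3* and a feature in which a *CDH1* probe is averaged with a probe of *RPL23A*. The summed signal of these 11 features, set mostly by the last one, came to 14.4 and 49.7 in mock knockdown and to 22.4 and 47.5 after *SOX2* knockdown. The part of these markers in the changes of SOX genes was not tested. In RNA of whole cultures, fewer cells of a kind and less RNA per cell cannot be told apart.

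In these data *SOX1* and *SOX2* were lower by more than the 2-fold cutoff after *SOX2* knockdown and *SOX4* was lower by less, while *SOX3*, *SOX5*, *SOX8*, *SOX10* and *SOX11* overlapped between the groups. A ratio of the replicate means at or under 0.5 was seen for 2 of the 8 tested SOX features, and for 167 of all 18378 features (0.909%, or 2.38% when both directions are counted). A ratio at or over 2 was seen for 0 of the 8 and for 1.47% of all features. One of the pair is the siRNA's own target, and *SOX1* was named by the study from these same samples, so the count is not independent evidence of a direction. After Benjamini-Hochberg adjustment of the limma p-values, 0 of the 8 SOX features and 0 of all features (0%) were under 0.05. An unadjusted p under 0.05 was reached by 3 of the 8, all lower, against 9.07% of all features lower and 8.12% higher (17.2% either way). *SOX1*, *SOX2* and *SOX4* were also the 3 whose groups did not overlap, with the knockdown signals lower, which held for 25.7% of all features tested. The opposite order was seen for 0 of the 8 and for 21.6% of all features, and either order for 47.2%. With 2 arrays against 2, an exact permutation test of a single value cannot give a two-sided p under 0.333.

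**Figure D1:**
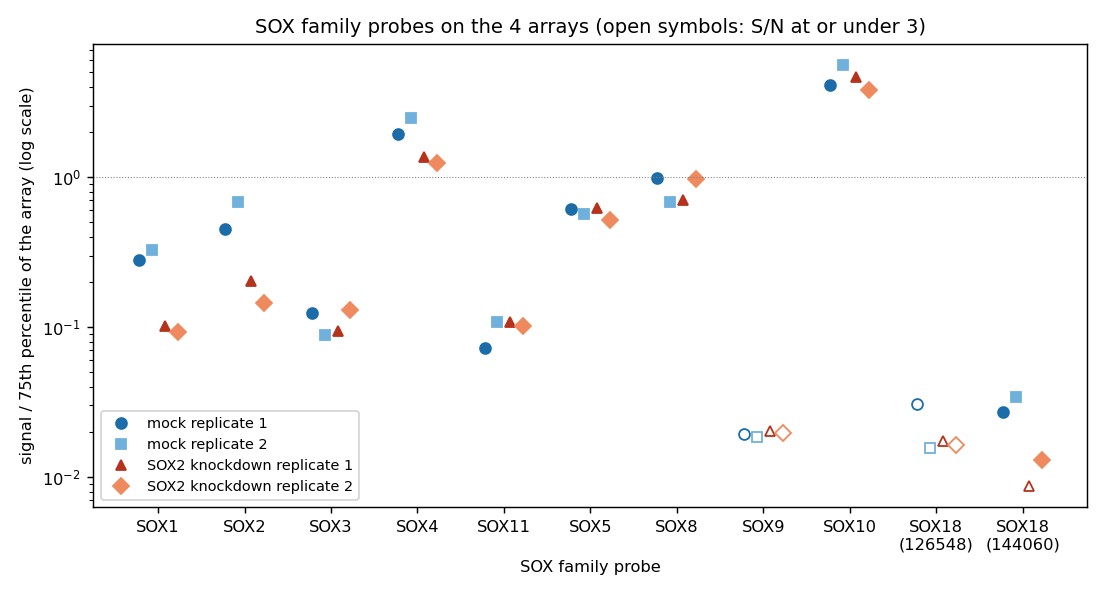
Signal of each SOX family probe relative to the 75th percentile of its array (vertical axis, log scale) on the 2 mock and 2 *SOX2* knockdown arrays, with open symbols where S/N was at or under 3. The knockdown arrays lie below the mock arrays for *SOX1*, *SOX2*, *SOX4* and the *SOX18* probe 144060, which was at background on knockdown replicate 1. *SOX9* lies between 0.0184 and 0.0203 on all 4 arrays.

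*SOX2*, the target of the siRNA and a factor of stem cell self-renewal, gave signals of 0.454 and 0.682 in mock knockdown and of 0.204 and 0.145 after *SOX2* knockdown. In mock knockdown it had an S/N of 5.17 and 13.6, but after *SOX2* knockdown of only 3.17 and 3.06, just over the limit of 3. The groups did not overlap, which is the direction that the labels give, although the mock arrays themselves differed by 0.59 on the log2 scale. The mean after knockdown was 0.308 of the mock mean. The log2 change was -1.69 (SE 0.28, 95% interval -2.45 to -0.93, limma), the 8th lowest of 18378 features. Its adjusted p of 0.114 (limma, Benjamini-Hochberg) was larger than that of *SOX1*, since the replicates of *SOX2* were further apart. *SOX2-OT*, the long non-coding transcript whose gene holds *SOX2* in an intron, overlapped between the groups with signals of 0.212 and 0.236 in mock knockdown and of 0.249 and 0.211 after *SOX2* knockdown.

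*SOX1*, the SoxB1 relative that marks early neural progenitors, gave signals of 0.279 and 0.327 in mock knockdown and of 0.101 and 0.0931 after *SOX2* knockdown. The groups were far apart, and the replicates were close together in each group. The mean went from 0.303 ± 0.0335 to 0.0972 ± 0.00577 (SD, n = 2 per group), a ratio of 0.321. Unlike *SOX2*, it had S/N well over the limit on every array, from 17.8 to 34.1. *SOX1* had 1 probe, and whether that probe also binds other SOX transcripts was not examined. The log2 change of -1.64 (SE 0.15, 95% interval -2.03 to -1.24) was the 11th lowest of all features, and by its unadjusted p of 0.000214 *SOX1* ranked 51st. The adjusted p was 0.0763 (limma, Benjamini-Hochberg), the smallest in the family and under 0.1 as for 0.903% of all features. With normexp background correction of the raw readings and an added offset of 50 the change was -0.84, so that *SOX1* no longer passed the 2-fold cutoff. The correction was not run without the offset. The adjusted p of *SOX1* (limma, Benjamini-Hochberg) moved both ways between settings. It was under 0.05 with array median scaling, without further scaling, with the authors' table and with a variance trend, from 8.55e-07 to 0.0353. Except with the variance trend, limma there gave every feature the same spread, and 639 to 669 of all features passed 0.05. The adjusted p of *SOX1* rose to 0.213 with normexp, 0.230 with the replicate number as a block and 0.280 without an S/N filter.

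*SOX3*, the remaining SoxB1 gene, did not follow the other two. Its signals were 0.124 and 0.0891 in mock knockdown and 0.0941 and 0.129 after *SOX2* knockdown, with S/N between 6.33 and 9.79. Each group held 1 higher and 1 lower array and the ranges overlapped almost fully. The log2 change was 0.07 with a 95% interval from -0.60 to 0.74 (adjusted p 0.948, limma with Benjamini-Hochberg), an interval that leaves out a decrease as large as that estimated for *SOX1* or *SOX2*. The differences of *SOX3* from its relatives were not tested, and its direction turned with normexp and when 1 array was left out.

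Of the SoxC genes, *SOX4*, which is expressed in progenitors and in many tumours, was bright on every array with S/N from 45.4 to 68.9. Its signals were 1.94 and 2.46 in mock knockdown and 1.37 and 1.24 after *SOX2* knockdown, so that the groups did not overlap. The mean went from 2.20 ± 0.373 to 1.31 ± 0.0899 (SD, n = 2 per group), a ratio of 0.593 that did not reach 2-fold. The log2 change was -0.74 (SE 0.17, 95% interval -1.21 to -0.28) with an unadjusted p of 0.0103 and an adjusted p of 0.162 (limma, Benjamini-Hochberg). It was the 468th lowest change of 18378. Every alternative kept the direction, with values from -0.92 (without mock replicate 1) to -0.57 (without mock replicate 2). Since the groups did not overlap, leaving out 1 array could not have turned it.

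*SOX11*, the other SoxC gene, gave signals of 0.0722 and 0.109 in mock knockdown and of 0.109 and 0.101 after *SOX2* knockdown. Only mock replicate 1 stood apart, below the other 3 arrays, and mock replicate 2 had an S/N of 26.2 where the others had 5.28 to 6.65. The log2 change was 0.24 with a 95% interval from -0.39 to 0.87 (adjusted p 0.715, limma with Benjamini-Hochberg). It was -0.055 without mock replicate 1 and 0.54 without mock replicate 2, so its direction rested on mock replicate 1.

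The SoxD gene *SOX5* has roles in cartilage and in oligodendrocyte precursors. Its probe is annotated to 3 transcripts of the gene. Signals were 0.610 and 0.571 in mock knockdown and 0.621 and 0.520 after *SOX2* knockdown, and the knockdown range covered the mock range. The log2 change of -0.06 had the narrowest 95% interval among the genes that overlapped, from -0.46 to 0.35 (adjusted p 0.925, limma with Benjamini-Hochberg).

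Among the SoxE genes *SOX10*, a master regulator of oligodendrocytes and neural crest derivatives, had S/N from 72.8 to 102. Its signals were 4.14 and 5.59 in mock knockdown and 4.66 and 3.83 after *SOX2* knockdown. Mock replicate 2 was the highest and knockdown replicate 2 the lowest array, with the other two in between and in overlap. The log2 change was -0.19 (SE 0.21, 95% interval -0.75 to 0.38) with an adjusted p of 0.767 (limma, Benjamini-Hochberg). It was 0.031 without mock replicate 2 and -0.40 without mock replicate 1, so the sign rested on mock replicate 2.

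*SOX8*, which overlaps in function with *SOX9* and *SOX10*, gave signals of 0.989 and 0.687 in mock knockdown and of 0.699 and 0.979 after *SOX2* knockdown. The 2 arrays of a group differed by a ratio of 0.695 in mock knockdown and of 1.40 after knockdown, while the group means were 0.838 ± 0.213 and 0.839 ± 0.198 (SD, n = 2 per group). Mock replicate 1 thus matched knockdown replicate 2, and mock replicate 2 matched knockdown replicate 1. The log2 change was 0.0047 with a 95% interval from -0.71 to 0.72 (adjusted p 0.997, limma with Benjamini-Hochberg), so that changes of up to about that size were not detectable with these arrays. *SOX3* was likewise higher on mock replicate 1 and knockdown replicate 2 than on the other two arrays. Such crossing was not particular to these genes. Over all tested features, deviations of arrays with the same replicate number correlated at r = -0.50.

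*SOX9*, which directs cartilage formation and is found in glial precursors, was not above background on any array. Its signals were 0.0193, 0.0184, 0.0203 and 0.0196 in the order mock replicates 1 and 2 and knockdown replicates 1 and 2, with S/N from -0.94 to 1.12. On 3 of the 4 arrays it carried a scanner flag, and wherever probes carry that flag the assay-normalized signal in the files equals its own standard error. Among the 196 negative control spots of an array, the 95th percentile was between 0.0582 and 0.0710 on the same scale, above every *SOX9* signal. With both groups at background, no fold change is read from these signals.

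The SoxF gene *SOX18*, a regulator of blood and lymphatic vessels, was represented by 2 probes of 1 gene ID. The probe 144060 gave signals of 0.0273 and 0.0339 in mock knockdown and of 0.00868 and 0.0131 after *SOX2* knockdown, with S/N of 4.50 and 4.69 against 0.04 and 5.47. By this probe the knockdown signals were the lower ones, with a ratio of the means of 0.355, but knockdown replicate 1 was at background. The probe 126548 gave 0.0305 and 0.0156 in mock knockdown and 0.0174 and 0.0163 after knockdown, a ratio of 0.732, with S/N at or under 1.57 on every array. Here the groups overlapped and mock replicate 1 alone was high.

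Averaged over both *SOX18* probes, the signal went from 0.0268 ± 0.00293 to 0.0139 ± 0.00119 with *SOX2* knockdown (SD, n = 2 per group), a ratio of 0.517. It was not tested because its mean S/N passed 3 on only 1 array of each group. All these signals lay under the 95th percentile of the negative control spots. The log2 change of the mean was -0.95, and it was -0.54 with normexp, 0 with a floor of 0.05 and -1.43 for the probe 144060 alone, which passed the S/N limit through the mock group, so that this value rests on a knockdown signal at background. The size of the *SOX18* difference therefore depended on the probe and on how signals near background were treated. *SOX18* was also named by the study, from these same samples, as reduced after *SOX2* knockdown.

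**Figure D2:**
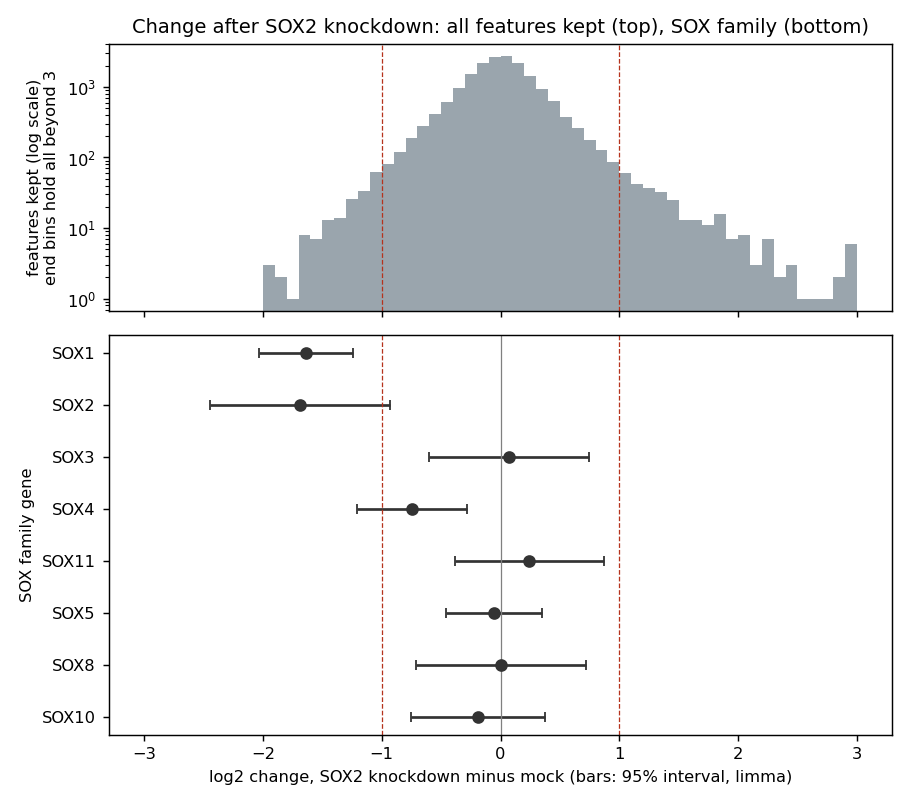
Top, number of tested features (log scale) by log2 change, *SOX2* knockdown minus mock, with changes beyond 3 in the end bins. Bottom, log2 change of the 8 tested SOX genes with 95% intervals from limma, and dashed lines at 2-fold. The intervals of *SOX1*, *SOX2* and *SOX4* lie below 0 and the other 5 include 0.

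**Figure D3:**
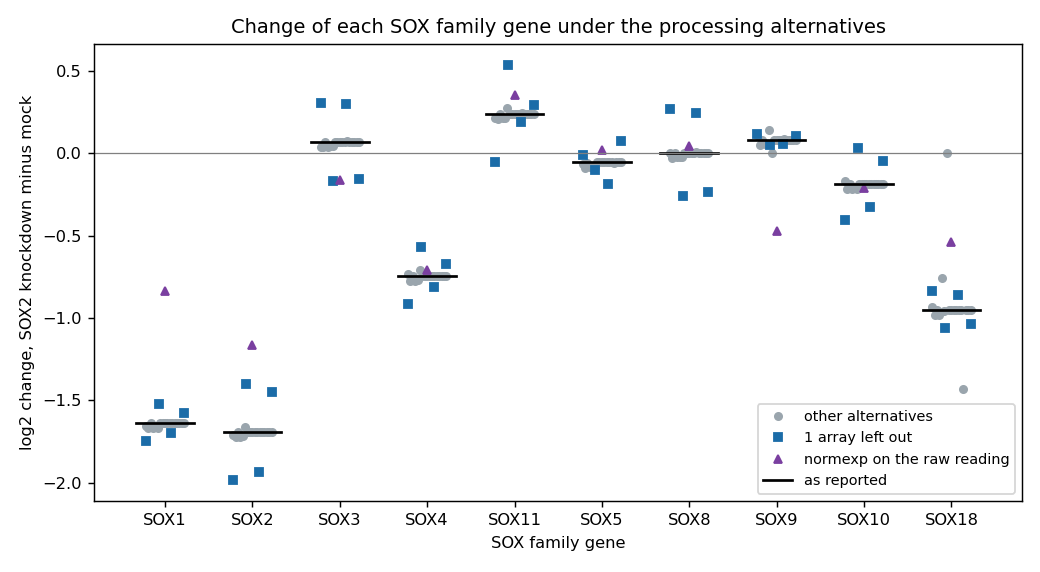
Log2 change, *SOX2* knockdown minus mock, of each SOX gene (horizontal axis) under every processing alternative, with a bar at the reported value, squares where 1 array was left out and triangles for normexp. *SOX1*, *SOX2* and *SOX4* stay below 0 throughout, with *SOX1* between -1.75 and -0.84, while *SOX3*, *SOX5*, *SOX8*, *SOX10* and *SOX11* fall on both sides of 0. *SOX9* was not above background on any array.

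To show the promoters of the 3 genes that were lower after knockdown, the 250 bases before their start are given from RefSeq (GRCh38.p14), 5′ to 3′ on the plus strand. RefSeq's table matched 5 of the 10 genes, *SOX1*, *SOX2*, *SOX3*, *SOX4* and *SOX5*. Capitals mark matches to ACAAT or ACAAAG, the cores of common SOX sites, or to the octamer ATGCAAAT of POU factors. All were searched on both strands, and none of the 3 contains another.
SOX2, chr3:181711675-181711924: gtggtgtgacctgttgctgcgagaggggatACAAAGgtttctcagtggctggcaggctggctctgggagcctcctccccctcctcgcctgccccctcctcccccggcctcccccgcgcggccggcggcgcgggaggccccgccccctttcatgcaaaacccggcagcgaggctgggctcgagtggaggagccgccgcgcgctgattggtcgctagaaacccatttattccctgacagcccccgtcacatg
SOX1, chr13:112066899-112067148: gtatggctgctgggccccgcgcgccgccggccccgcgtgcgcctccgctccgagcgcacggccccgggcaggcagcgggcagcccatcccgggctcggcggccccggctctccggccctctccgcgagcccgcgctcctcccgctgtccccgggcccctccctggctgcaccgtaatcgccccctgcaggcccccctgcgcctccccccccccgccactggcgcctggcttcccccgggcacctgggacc
SOX4, chr6:21593501-21593750: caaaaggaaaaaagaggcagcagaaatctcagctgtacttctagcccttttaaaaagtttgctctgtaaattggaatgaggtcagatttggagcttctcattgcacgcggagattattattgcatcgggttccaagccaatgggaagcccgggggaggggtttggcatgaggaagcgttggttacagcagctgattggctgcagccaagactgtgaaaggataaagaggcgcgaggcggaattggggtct
The *SOX2* promoter held 1 match, ACAAAG on the plus strand, which begins 220 bases before the start. In the windows of *SOX1* and *SOX4* these letters were not found. Of 35116 promoters of the same length, 24.6% held ACAAT, 13.7% ACAAAG and 1.63% the octamer. The *SOX1* window had a GC content of 82% with 31 CpG dinucleotides, the *SOX2* window 68.8% with 20 and the *SOX4* window 48.8% with 8, where the median promoter had 58%. Of the members that overlapped between the groups, *SOX3* (61.6% GC) held no match and *SOX5* (65.6% GC) held 2 of ACAAT. A match is a description of the sequence and not a binding site.

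The features whose 4 signals varied most like those of *SOX2* and *SOX1* were looked for among the 14139 features with a symbol and S/N over 3 on all arrays, by the root mean square difference of mean-centred log2 signals over the 4 arrays. For *SOX2* they were *TMEM16A* (0.129), *COL4A1* (0.176) and *SOX1* itself (0.184). *TMEM16A*, an older symbol of the chloride channel gene *ANO1*, went from 1.09 and 1.33 in mock knockdown to 0.498 and 0.340 after *SOX2* knockdown. For *SOX1* they were *GNG7* (0.0780), *COL4A1* (0.0986) and *S100A1* (0.104). *GNG7*, which encodes a G protein gamma subunit, went from 5.23 and 5.55 to 1.91 and 1.83, and *COL4A1*, a basement membrane collagen, from 0.823 and 0.888 to 0.315 and 0.243. All of these were lower on both knockdown arrays, and over 4 arrays likeness mostly reflects the size of that difference.

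The other SOX genes were described in the same way. All 9 on the list, *SOX6*, *SOX7*, *SOX12*, *SOX13*, *SOX14*, *SOX15*, *SOX17*, *SOX21* and *SOX30*, were on the arrays and 4 of them were tested. Of these 0 passed 2-fold and 0 had an unadjusted p under 0.05, and the median log2 change was 0.05 beside 0.00 over all features. *SOX12*, the third SoxC gene, gave 0.465 and 0.498 in mock knockdown and 0.489 and 0.518 after *SOX2* knockdown. *SOX21*, a SoxB2 gene that counteracts SoxB1 proteins, gave 0.273 and 0.279 against 0.292 and 0.270 on 1 of its 2 features. *SOX13* and *SOX17* also overlapped between the groups. The 5 that were not tested were dim on most arrays. Among them *SOX14* had a ratio of the means of 2.43 that came from knockdown replicate 2, the only array where its S/N was over 3. *SOX15* was higher without overlap, with a ratio of 1.76, and *SOX30* lower without overlap, with a ratio of 0.682. All signals of these 3 genes lay under the 95th percentile of the negative control spots.

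Genes that work with SOX proteins or are known as their targets were then described by lists that this work wrote. Of 15 tested partner factors, 0 passed 2-fold, 3 had an unadjusted p under 0.05 and were lower, and 1 was higher. Of all features 2.38% passed 2-fold, and 9.07% were lower and 8.12% higher by that p. The 3 were *MEF2C*, *MITF* and *GLI3*, with log2 changes of -0.80, -0.71 and -0.68. *MITF*, the melanocyte factor that SOX10 activates, gave 2.59 and 2.59 in mock knockdown and 1.60 and 1.56 after *SOX2* knockdown. *PAX6*, a partner of SOX2 in the eye and in neural progenitors, was higher, with 0.0610 and 0.0877 against 0.116 and 0.132. Its signal on mock replicate 1 lay under the 95th percentile of the negative control spots.

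Of the 14 tested SoxB1 targets, 1 was over 2-fold lower and 0 over 2-fold higher, beside 0.909% and 1.47% of all features. It was *FABP7*, a fatty acid binding protein of radial glia, which went from 19.1 and 21.99 to 10.01 and 10.2 (log2 change -1.02, adjusted p 0.101, limma with Benjamini-Hochberg). An unadjusted p under 0.05 was reached by 1 lower feature, *FABP7*, and by 4 higher ones (9.07% and 8.12% of all features). The higher ones were the Notch ligand *JAG1*, the receptor *NOTCH1* and *OLIG2*, with log2 changes of 0.84, 0.57 and 0.42, and *LEFTY1*. *LEFTY1* passed the S/N limit on the knockdown arrays alone, and its signals on all 4 arrays lay under the 95th percentile of the negative control spots, so no fold change is given for it. *NES*, a classical SoxB1 target, overlapped between the groups with 0.523 and 0.409 against 0.444 and 0.554. The median log2 change of the list was 0.09.

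Of 7 tested SoxC targets 0 passed 2-fold, while *TEAD2* was lower with a log2 change of -0.85 and *EZH2* higher with 0.83, both with an unadjusted p under 0.05 (9.07% and 8.12% of all features). *TEAD2*, a target of *SOX4* and *SOX11*, went from 0.605 and 0.581 to 0.343 and 0.317. Of 21 tested targets of SoxE and SoxD proteins, 5 had an unadjusted p under 0.05 and were lower and 0 were higher, beside 9.07% and 8.12% of all features. Among them were the cartilage matrix genes *HAPLN1*, *COL9A1* and *COL11A1* and the receptor gene *ERBB3*. The median log2 change of that list was -0.11. *HAPLN1*, which links matrix proteoglycans, was the only one over 2-fold lower, with 0.130 and 0.164 in mock knockdown and 0.0666 and 0.0507 after *SOX2* knockdown, the last under the 95th percentile of the negative control spots.

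Of the 5 tested SoxF targets, 1 was over 2-fold lower, *KDR*, a receptor for vascular growth factors, with 0.111 and 0.134 against 0.0521 and 0.0556. Its knockdown signals lay under the 95th percentile of the negative control spots. Of all features 0.909% passed that cutoff. *PROX1* and *EFNB2* were higher, with an unadjusted p under 0.05 (8.12% of all features) and log2 changes of 0.58 and 0.45. Endothelial markers on that list such as *CDH5* were mostly dim, and 6 of 13 had S/N over 3 on 0 arrays. In no list did a feature pass an adjusted p of 0.05 (limma, Benjamini-Hochberg), and no feature of the partner or target lists was over 2-fold higher.

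**Figure D4:**
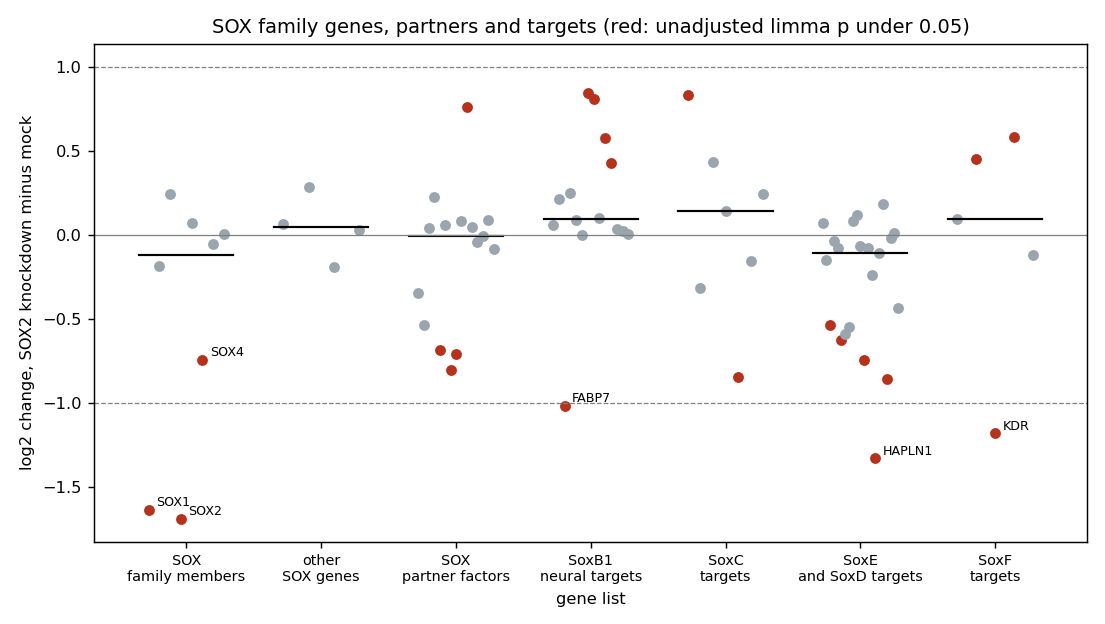
Log2 change, *SOX2* knockdown minus mock, of each tested gene of the SOX family and of the lists of other SOX genes, partners and targets, with black bars at list medians, dashed lines at 2-fold and red points where the unadjusted limma p was under 0.05. Names mark SOX family genes lower by more than 0.7 and other genes past 2-fold. *SOX1* and *SOX2* lie lowest, and the tested genes in the list of other SOX genes lie between -0.19 and 0.28.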

How the data were processed

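RNA of 2 mock and 2 *SOX2* knockdown transfections of LN229 cells was measured on Applied Biosystems Human Genome Survey arrays, with groups from the source names of the labels. Per the file headers, the deposited scanner files give a normalized signal intensity, an assay-normalized intensity, a raw reading, an error, flags and S/N, a score. The scanner software is not given in the sources used here. In the deposited value table of the authors each probe is a linear ratio to its median over the arrays, with a floor of 0.01. It was used as an alternative.

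Control spots and 210 probes with a flag of 5000 or more were left out. Normalized signals were averaged by gene ID (the study's methods speak of averaging raw intensities), divided by the array's 75th percentile, floored at 0.01 and log2-transformed. Probes are shown one by one on the same scale without the floor. Features with S/N over 3 on both arrays of a group were fitted with limma 3.58.1 in R 4.3.3 (lmFit and eBayes, no block, two-sided, Benjamini-Hochberg over 18378 features), and the 2-fold cutoff of the study's methods was applied to linear means. The script was tested on simulated data. The replicates are separate transfections according to the methods.

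The members and lists were chosen with earlier results of these data known. Every member is named. Others named are the partners and targets past 2-fold, the 3 features nearest *SOX2* and *SOX1*, and genes with an unadjusted p under 0.05, which were added after their values were seen along with *NES*, *CDH5* and the other SOX genes described. *SOX2-OT* is listed on the arrays as SOX2OT. Protein sequences were not analysed here. One gene of the target lists is not reported here.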

Additional observations from a re-analysis of the deposited data

How the results depend on the processing

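*SOX1*, *SOX2* and *SOX4* were lower under all 22 alternatives run for single genes, but many of these could not have turned the sign. Other floors, S/N filters and limma models left the 3 changes as they were. Leaving out 1 array cannot reverse a gene whose groups do not overlap. The count of 2 SOX features past 2-fold stayed within 1.5 times under 16 of 17 settings and was 1 with normexp. The count over all features, 438, became 176 with normexp, 288 with a floor of 0.05, 1055 without an S/N filter, 245 when S/N had to pass 3 on every array, 1812 at 1.5-fold and 94 at 3-fold. Leaving out 1 array gave 624 (without *SOX2* knockdown replicate 2) to 934 (without mock replicate 1) features. It was 675 when mock replicate 2 was dropped and 885 when *SOX2* knockdown replicate 1 was. The SOX count was then 2 to 3 SOX features, *SOX18* being the third without mock replicate 2. SOX features with an unadjusted p under 0.05 then numbered 2 (without *SOX2* knockdown replicate 2) to 5 (without mock replicate 2).

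The 0 features at an adjusted p of 0.05 became 669 with array median scaling, 650 without further scaling, 639 with the authors' table, 240 with a variance trend and 3 when S/N had to pass 3 on every array. In the first 3 settings limma gave every feature the same spread (infinite prior degrees of freedom against 2.41), and *SOX1* and *SOX2* both passed, *SOX2* with a change of -1.72. With the variance trend *SOX1* passed (adjusted p 0.0353) and *SOX2* did not (0.0566). Over all alternatives its adjusted p ran from 3.01e-07 to 0.498. Leaving out 1 array gave *SOX2* changes of -1.98 to -1.40.

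Genes near 0 changed sign. *SOX8* was -0.028 with array median scaling, -0.025 without further scaling and with the assay-normalized signal, and -0.021 with the authors' table. With normexp *SOX3* was -0.16 and *SOX5* 0.019. With 1 array left out *SOX3* ran from -0.17 to 0.31 (-0.16 without *SOX2* knockdown replicate 2), *SOX8* from -0.26 to 0.27 (-0.24 without *SOX2* knockdown replicate 2), *SOX5* from -0.18 to 0.073, *SOX10* from -0.40 to 0.031 and *SOX11* from -0.055 to 0.54.

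The replicate numbers are not stated to pair the samples. With the replicate number as a block 3 SOX features had an unadjusted p under 0.05 and 0 features passed an adjusted p of 0.05. Deviations of arrays with the same number correlated at r = -0.50 across features, and crossed numbers as a block, chosen after seeing the data, also gave 3 and 0. No lower bound for dim signals was computed, as no SOX feature was dim on both arrays of only 1 group.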
